A study of Mus musculus with 6 samples.

Results

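The genes described here are 10 markers of macrophages and dendritic cells that respond to interleukin 4 (IL-4) or that derive from blood monocytes: Retnla, Arg1, Chi3l3, Mgl2, Il4ra, Folr2, Cd163, F13a1, Fn1 and Ly6c2. They were chosen by symbol, and all 10 were among the 23225 gene symbols of the deposited count table and passed the filter on low counts. RNA had been sequenced from dendritic cells sorted from day 23 ID8 tumours of C57BL/6 mice. ID8 is a mouse ovarian cancer line whose tumours spread over the peritoneum and fill it with ascites, the source named for these cells. The groups were 3 libraries from wild-type mice (WT) and 3 from mice with a conditional deletion of XBP1, a transcription factor of the unfolded protein response, in their CD11c-positive cells (XBP1-KO). Every library came from a tumour-bearing animal, so there was no tumour-free reference. The sources used here do not give the driver of the deletion, the sort gate, any pooling of mice or the alleles carried by the WT mice. CD11c is known from macrophages and some lymphocytes as well as from dendritic cells. Within a genotype the libraries are called a, b and c, by column, and letters do not match libraries across genotypes.

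IL-4 and IL-13 bind receptors that contain the chain encoded by Il4ra and, through Janus kinases, activate the transcription factor STAT6. In mouse myeloid cells STAT6 is known to switch on Retnla, Arg1, Chi3l3 and Mgl2, a program called alternative activation. Cells that enter the inflamed peritoneum from blood begin as monocytes with surface Ly6C, lose it as they mature into small peritoneal macrophages or dendritic cells, and often make F13a1 and Fn1, while Folr2 and Cd163 mark scavenging macrophages.

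None of the 10 genes changed between the genotypes at an adjusted p under 0.05 in edgeR's quasi-likelihood test (0 of 10), where 0.445% of all 15958 genes tested did. The closest was Fn1, at 0.45 times its WT level in XBP1-KO, and it was the only one of the 10 whose values did not overlap between the genotypes. Values did not overlap for 19.2% of all genes tested, and lay lower in every XBP1-KO library for 10.4%. At an unadjusted p under 0.05 there were 4 of the 10, Fn1, Mgl2, Ly6c2 and Cd163, against 12.9% of all genes tested. With DESeq2, which called 3.17% of the genes it tested, 1 of the 10 was called, Fn1. limma-voom (0.326% of genes called) and limma on the deposited CPM with a pseudocount of 1 or 0.1 (0.222% and 0.208%) called 0 of the 10. Of the 10, 6 lay lower and 4 higher in XBP1-KO, with a median log2 fold change of -0.47, where the median over all genes tested was 0.06.

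**Figure D1:**
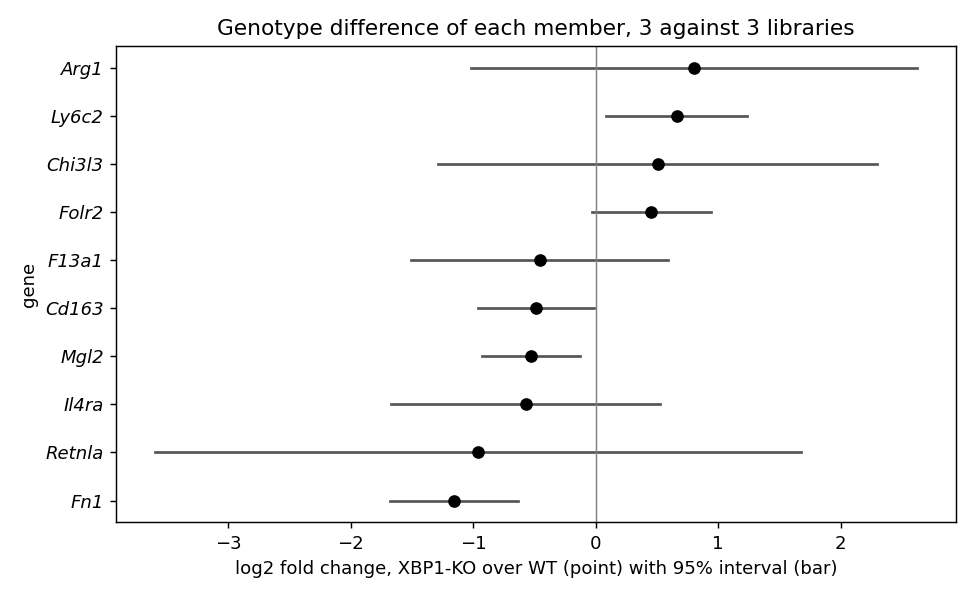
Fold change of each gene between the genotypes on the log2 scale (x axis, XBP1-KO over WT), as a point with its 95% interval as a bar, genes in order of fold change. The interval of Fn1 runs from -1.68 to -0.63 and that of Retnla from -3.60 to 1.68.

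The spread between libraries of the same genotype was wide for these genes. Their SD of log2 CPM within a genotype had a median of 0.52, where the median over all genes tested was 0.29, and all 10 lay above that median. Retnla (1.32), Chi3l3 (1.00) and Arg1 (0.86) varied most, at the 98.1, 94.9 and 92.1 percentile of all genes tested, and Mgl2 (0.30) varied least, at 51.7. Levels in CPM are counts scaled to the library total and corrected by the TMM factors of edgeR, and library values are given in the order a, b, c.

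**Figure D2:**
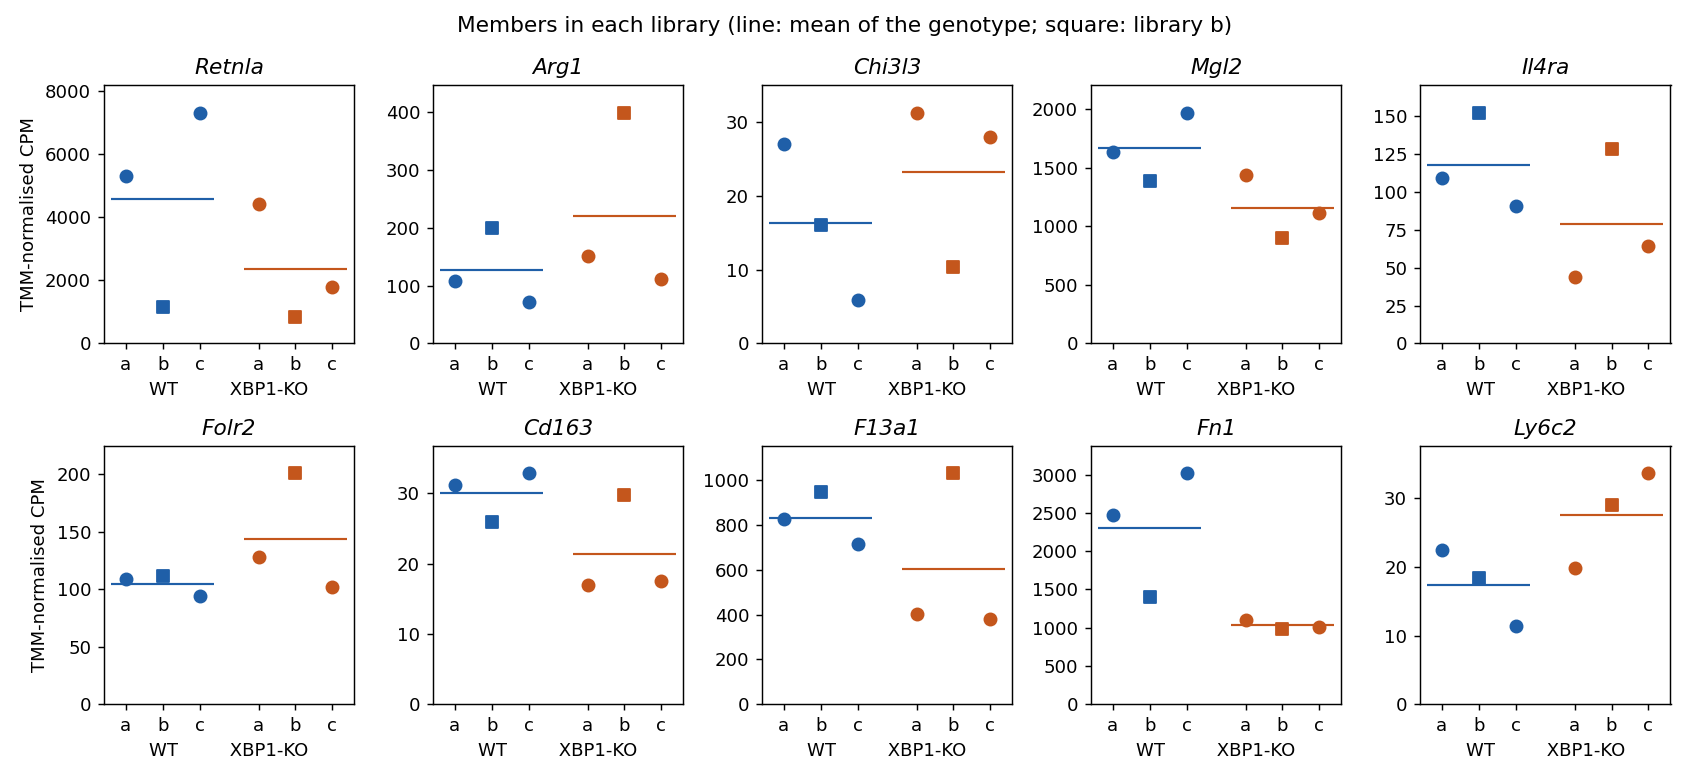
TMM-normalised CPM (y axis, from 0) of the 10 genes in the 3 WT libraries (blue) and 3 XBP1-KO libraries (orange), with a line at the mean of each genotype and a square for library b. For Fn1 every XBP1-KO point lies below every WT point, and for the other 9 genes the genotypes overlap.

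Per length of transcript Retnla had the highest level of the 10, with 7663 ± 5260 CPM per kb in WT (SD, n = 3) and 3932 ± 3096 in XBP1-KO. Mgl2 followed with 1019 ± 179 CPM per kb in WT, then Fn1 (276 ± 98.4), F13a1 (210 ± 29.6), Folr2 (87.0 ± 7.61) and Arg1 (85.8 ± 45.1). Il4ra (22.3 ± 6.00), Ly6c2 (21.1 ± 6.87), Chi3l3 (10.6 ± 6.89) and Cd163 (6.75 ± 0.806) were lowest. The order of Retnla above Mgl2 above Fn1 held in 6 of 6 libraries, while Fn1 exceeded F13a1 in 4, Folr2 exceeded Arg1 in 4 and Il4ra exceeded Ly6c2 in 2, so these neighbours were not separated.

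Il4ra, the ligand-binding chain shared by the IL-4 and IL-13 receptors, had 109, 152 and 90.5 CPM in the WT libraries and 43.8, 128 and 64.4 CPM in the XBP1-KO libraries. XBP1-KO a and c lay below every WT library and XBP1-KO b lay among them. On the log2 scale the fold change was -0.57 (SE 0.44, adjusted p 0.639), and its 95% interval ran from -1.67 to 0.53. Without XBP1-KO b it was -1.12 (adjusted p 0.0558), and without XBP1-KO a -0.29. The profiles most like it over the 6 libraries were those of Mdm1 and Il21r, the chain of the IL-21 receptor, whose centred log2 CPM differed from that of Il4ra by a root mean square of 0.15 each. Il21r had 40.3, 44.1 and 35.2 CPM in WT against 17.4, 46.0 and 24.9 in XBP1-KO.

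In the rest of the receptor pathway edgeR called no gene, with Stat6 and Tyk2 just outside the threshold, and DESeq2 called both. Of 14 listed genes of IL-4 and IL-13 signalling 11 were tested, 9 of them lay lower in XBP1-KO, 2 higher, and the median log2 fold change was -0.30. limma-voom called none either, and the 2 that DESeq2 called, both lower, were those with an unadjusted p under 0.05. Tyk2, a Janus kinase of cytokine receptors, had 82.7, 119 and 102 CPM in WT against 63.1, 47.4 and 62.4 in XBP1-KO (adjusted p 0.0530 in edgeR). Stat6 had 300, 347 and 299 CPM in WT against 181, 228 and 199 in XBP1-KO, or -0.64 as log2 fold change (SE 0.13, adjusted p 0.0565). Neither gene overlapped between the genotypes. Stat6 passed without XBP1-KO b (0.0357) and without WT b and XBP1-KO b together (0.0484), and Tyk2 without WT a (0.0472), with RLE factors (0.0465) and with a filter at a CPM of 1 (0.0481), and both passed without a filter on low counts. Il13ra1, the partner chain of the receptor for IL-13, had 61.1 ± 10.1 CPM in WT against 64.5 ± 4.75 in XBP1-KO (SD, n = 3), and Il2rg, the common gamma chain, 760 ± 117 and 738 ± 61.2 CPM; these 2 were named after their values were seen. Of the ligands, Il13 had between 0 and 1 counts in every library, and Il4 was not among the gene symbols of the deposited count table.

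Retnla encodes RELM-alpha, a small secreted protein that STAT6 induces. Its promoter is shown because Retnla had the highest level per kb of the 10, and because of its motif. Of the 8 genes with a promoter window, only Retnla held the motif TTC, 4 bases, GAA, the spacing that STAT6 is known to prefer. The sequence is the 250 bases before the start of the gene, from RefSeq, build GRCm38.p6, chr16:48842359-48842608, plus strand, with the motif in capitals; it begins 145 bases before the start.
Retnla: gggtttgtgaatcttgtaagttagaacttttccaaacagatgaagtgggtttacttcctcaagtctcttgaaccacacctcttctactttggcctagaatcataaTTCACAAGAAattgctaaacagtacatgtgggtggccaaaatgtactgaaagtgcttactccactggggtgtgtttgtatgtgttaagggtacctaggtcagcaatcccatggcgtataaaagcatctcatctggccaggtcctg

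Of the 10 genes 8 had a RefSeq promoter, in 11 windows of 250 bases before to 50 bases after a start. Arg1 and Fn1 had no promoter in the set used, so they were not searched for any motif. The motif of TTC, 4 bases, GAA, which reads the same on both strands, occurred in 6.95% of all 32851 promoter windows. TTC, 3 bases, GAA occurred in 8.30% and, of the 8 genes searched, only in Chi3l3. TGACGTG, a motif known for XBP1, was searched on both strands; 2.01% of all windows held it and none of the 11. A match of letters is not a bound site.

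Retnla had 5307, 1143 and 7321 CPM in the WT libraries and 4429, 855 and 1782 CPM in the XBP1-KO libraries. Library b was the lowest of its genotype in both, and XBP1-KO a lay within the WT range. By count Retnla was gene number 13, 86 and 10 of the WT libraries and 13, 137 and 36 of the XBP1-KO libraries, and it took between 0.0895% and 0.670% of all counts. The mean went from 4590 ± 3151 CPM in WT to 2355 ± 1854 CPM in XBP1-KO (SD, n = 3). The log2 fold change of -0.96 (SE 0.98) had an adjusted p of 0.733, and its 95% interval, 0.082 to 3.2 times the WT level, holds both a large fall and a rise. Without XBP1-KO a it was -1.80, without WT b -1.45, without WT c -0.46 and without XBP1-KO b -0.59, none of them called. Ear2, an eosinophil-type ribonuclease also made by myeloid cells, had the most similar profile (root mean square difference 0.38), followed by Fcrls (0.46). Ear2 had 1130, 448 and 1473 CPM in WT against 753, 230 and 410 in XBP1-KO. Retnlg, another gene of the family and one known from neutrophils, had 67.5, 16.3 and 42.0 CPM in WT against 121, 131 and 135 in XBP1-KO (adjusted p 0.304).

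Chi3l3 encodes Ym1, a chitinase-like protein without chitinase activity, known from IL-4-treated macrophages and from neutrophil precursors. Its paralog Chi3l4 encodes Ym2. The 250 bases before each start, both minus strand of GRCm38.p6 (chr3:106167565-106167814 and chr3:106219480-106219729, RefSeq), are printed to show how alike the pair is, with TTC, 3 bases, GAA in capitals.
Chi3l3: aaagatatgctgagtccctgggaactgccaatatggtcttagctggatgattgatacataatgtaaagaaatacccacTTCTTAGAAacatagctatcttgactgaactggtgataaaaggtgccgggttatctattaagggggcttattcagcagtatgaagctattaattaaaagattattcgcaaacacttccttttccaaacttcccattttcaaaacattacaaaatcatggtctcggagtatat
Chi3l4: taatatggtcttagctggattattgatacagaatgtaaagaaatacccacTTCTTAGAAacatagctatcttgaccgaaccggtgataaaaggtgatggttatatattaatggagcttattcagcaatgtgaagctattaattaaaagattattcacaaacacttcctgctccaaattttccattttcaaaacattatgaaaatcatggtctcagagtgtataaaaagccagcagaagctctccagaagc

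The aligned parts of these 2 windows were identical at 91.4% of 221 positions, and the motif stood 172 and 200 bases before the annotated starts. Over the transcripts, 18.5% of the 50-base stretches of Chi3l3 also occurred in Chi3l4, so part of their reads could have been assigned to either gene. Chi3l3 had 27.1, 16.1 and 5.84 CPM in WT against 31.3, 10.3 and 28.0 in XBP1-KO, and the genotypes overlapped. Chi3l4 stayed under 1 CPM, with 0.235 ± 0.182 in WT and 0.611 ± 0.352 in XBP1-KO (SD, n = 3). The log2 fold change of Chi3l3 was 0.51 (SE 0.70, adjusted p 0.804). It ran from 0.10 without WT c to 1.08 without WT a. The nearest profiles were those of Xkrx (root mean square difference 0.44) and Eif2ak4 (0.47). The 9 neutrophil markers summed to 333, 142 and 127 CPM in WT against 482, 356 and 585 in XBP1-KO, and their members differed in order between libraries. Named after their values were seen, the granule gene Ngp had 70.1, 0.354 and 11.8 CPM in WT against 86.6, 0.641 and 121 in XBP1-KO, while the chemokine receptor Cxcr2 had 29.0, 48.8 and 23.8 CPM in WT against 39.8, 66.6 and 37.5 in XBP1-KO. Library b was thus the lowest of each genotype in Ngp and the highest in Cxcr2. The part of neutrophil RNA in the values of Chi3l3 was not tested.

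Mgl2 encodes CD301b, a galactose-type lectin of IL-4-responsive dendritic cells and macrophages. It had 1638, 1389 and 1972 CPM in WT against 1441, 904 and 1117 in XBP1-KO. XBP1-KO b and c lay below every WT library and XBP1-KO a lay just above WT b. The fold change on the log2 scale was -0.53 (SE 0.18), or 0.69 times the WT level with a 95% interval of 0.52 to 0.91, and the adjusted p was 0.237. Its paralog Clec10a, the lectin CD301a, had 269, 275 and 238 CPM in WT against 213, 220 and 225 in XBP1-KO (adjusted p 0.414). Of the 50-base stretches of the Mgl2 transcript, 15.3% also occurred in Clec10a.

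Arg1 encodes arginase 1, which turns arginine into ornithine and urea and is a common mark of suppressive myeloid cells in tumours. Its level was 108, 200 and 71.1 CPM in WT against 152, 400 and 111 in XBP1-KO. Library b was the highest of each genotype, and the ranges overlapped. The fitted log2 fold change was 0.80 (SE 0.68, adjusted p 0.682), and its 95% interval ran from 0.49 to 6.18 times the WT level. It fell to 0.05 without XBP1-KO b and was 1.27 without WT b. Clec4e, the receptor Mincle (root mean square difference 0.19), and Cd5l, a secreted macrophage protein (0.19), had the most similar profiles. Cd5l had 78.4, 140 and 53.4 CPM in WT against 99.4, 218 and 94.2 in XBP1-KO.

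Around arginase, 9 of 11 listed genes of arginine and polyamine metabolism were tested, of which 6 lay higher and 3 lower, with a median log2 fold change of 0.12. No gene was called by edgeR or limma-voom, 1 had an unadjusted p under 0.05, and DESeq2 called that gene, Oat. Oat, the ornithine aminotransferase that uses the product of arginase, had 243, 264 and 300.0 CPM in WT against 177, 192 and 168 in XBP1-KO (adjusted p 0.0678 in edgeR). Nos2, the nitric oxide synthase that competes for arginine, had between 2 and 13 counts in each library and was not tested.

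The wider list of alternative activation genes held 19 genes, all tested, and moved in both directions. In XBP1-KO 13 lay lower and 6 higher, with a median log2 fold change of -0.13, and 6 had an unadjusted p under 0.05. edgeR and limma-voom called 2, Alox15 and Mrc1, and DESeq2 these and Ear11, a ribonuclease that lay lower. Alox15, the 12/15-lipoxygenase that IL-4 induces and that resident peritoneal macrophages also express, had 325, 306 and 278 CPM in WT against 554, 813 and 586 in XBP1-KO. It rose by 1.10 on the log2 scale (SE 0.16, adjusted p 0.0142). Mrc1, the mannose receptor CD206, had 547, 538 and 595 CPM in WT against 305, 398 and 289 in XBP1-KO, and it fell by 0.76 on the log2 scale (SE 0.14, adjusted p 0.0455). Alox15 did not pass without WT b (0.0512) or WT c (0.121), and Mrc1 kept its call with XBP1-KO b left out (0.0108) and lost it with any other single library left out (0.0694 to 0.243). Mrc1 also missed the threshold with upper quartile factors, library size alone and the deposited CPM (0.0635 to 0.0940). The 10 resident peritoneal macrophage markers (Gata6, Timd4, Icam2, Selp, Prg4, Cd5l, Saa3, Cxcl13, Garnl3 and Lyve1) all lay higher in XBP1-KO. Of all 15958 genes tested 8959 lay higher. For these markers edgeR called none and DESeq2 called 4. Their part in the values of Alox15 was not tested.

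**Figure D3:**
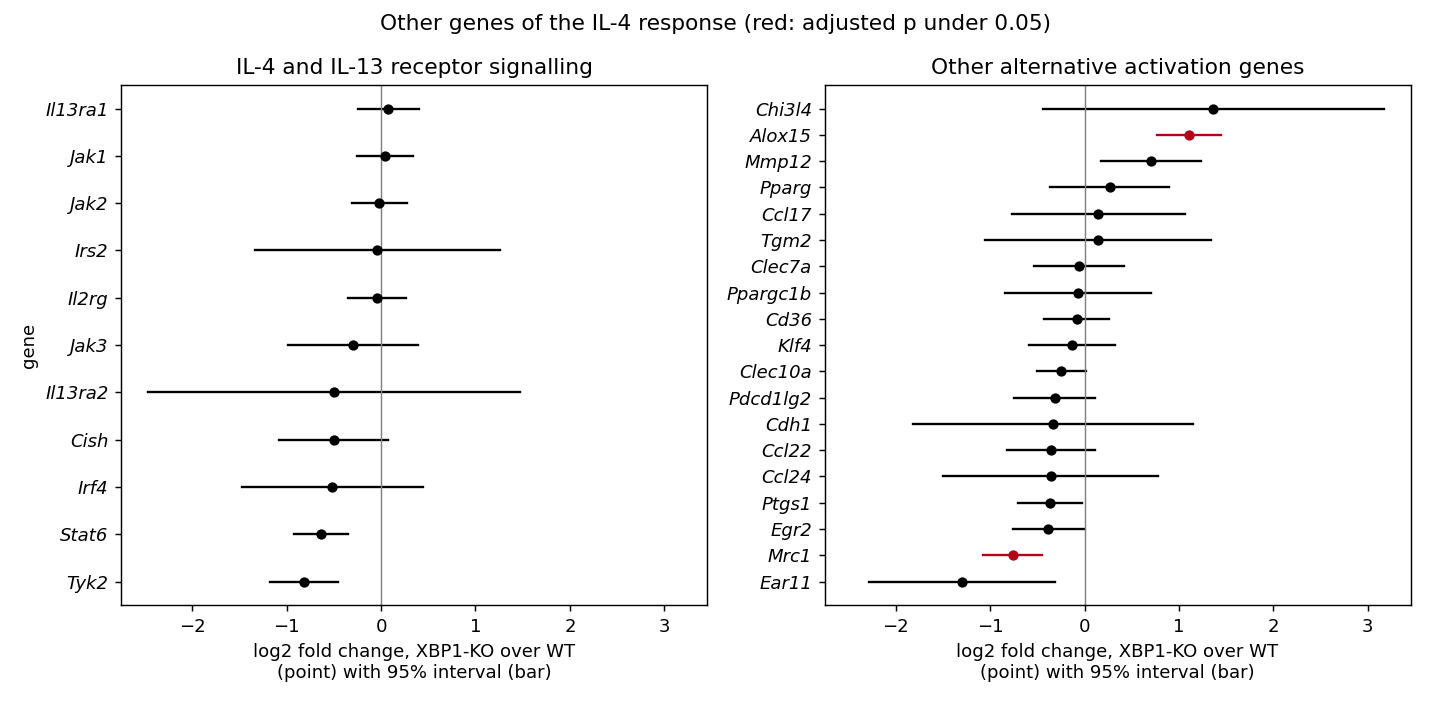
Fold change on the log2 scale (x axis, XBP1-KO over WT; point with 95% interval) of the tested genes of IL-4 and IL-13 receptor signalling (left) and of other alternative activation genes (right). Mrc1 at -0.76 and Alox15 at 1.10, in red, are the genes with an adjusted p under 0.05, and Stat6 (-0.64) and Tyk2 (-0.82) have intervals below 0.

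Folr2 encodes folate receptor beta of tissue macrophages. It had 109, 111 and 94.3 CPM in WT against 128, 201 and 102 in XBP1-KO. XBP1-KO b stood far above the rest, and XBP1-KO c lay within the WT range. On the log2 scale the fold change was 0.45 (SE 0.22, adjusted p 0.426), and 0.12 without XBP1-KO b. All 9 listed genes of folate uptake and use were tested, with 4 higher, 5 lower and a median of -0.08. None passed in edgeR, DESeq2 or limma-voom, and none had an unadjusted p under 0.05.

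Cd163, the receptor that clears haemoglobin bound to haptoglobin, had 31.2, 26.0 and 32.8 CPM in WT against 17.0, 29.7 and 17.5 in XBP1-KO. XBP1-KO a and c lay below every WT library, and XBP1-KO b within the WT range. The fold change on the log2 scale was -0.49 (SE 0.22, adjusted p 0.369), and -0.81 without XBP1-KO b with an adjusted p of 0.0596. Of the genes that handle haem and iron after uptake 8 of 9 were tested, with 5 higher, 3 lower and a median of 0.15. None passed in edgeR or limma-voom, 2 had an unadjusted p under 0.05, and DESeq2 called 1 of them, Blvrb. Blvrb, a biliverdin reductase, had 98.9, 85.7 and 69.8 CPM in WT against 121, 157 and 117 in XBP1-KO (adjusted p 0.104 in edgeR).

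F13a1 encodes the A subunit of coagulation factor XIII, a transglutaminase that cross-links fibrin and fibronectin. It had 830, 950 and 715 CPM in WT against 403, 1031 and 381 in XBP1-KO. XBP1-KO a and c lay far below every WT library and XBP1-KO b above them all. The fitted log2 fold change was -0.46 (SE 0.42, adjusted p 0.701). This value rested on XBP1-KO b. Without it the log2 fold change was -1.10 (adjusted p 0.00680), in a fit that called 0.945% of genes, and without WT b and XBP1-KO b together -0.995 with 0.0194, where 0.44% of genes were called. Without any other single library the adjusted p lay between 0.766 and 0.900. Gyk, a glycerol kinase (root mean square difference 0.15), and Crkr (0.16) had the profiles most like it.

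Fn1 encodes fibronectin, a matrix glycoprotein that macrophages secrete and integrins bind. Its level was 2472, 1407 and 3015 CPM in WT against 1101, 981 and 1013 in XBP1-KO. Every XBP1-KO library lay below every WT library, and the XBP1-KO values lay within 1.122 times of each other where the WT values spanned 2.14 times. On the log2 scale the fold change was -1.15 (SE 0.24), or 0.45 times the WT level with a 95% interval of 0.31 to 0.65, and the adjusted p was 0.0718. Fn1 passed with DESeq2 (9.16e-05), without WT b (-1.44, adjusted p 0.0107, in a fit that called 0.243% of genes) and without WT b and XBP1-KO b (-1.40, 0.0120). Over the other alternatives its adjusted p lay between 0.072 and 0.255, the highest without WT c. The nearest profiles were those of Lpar1, a receptor of lysophosphatidic acid (root mean square difference 0.15), and Nucb2, a calcium-binding protein of the secretory pathway (0.17). Nucb2 had 106, 64.8 and 95.4 CPM in WT against 42.4, 40.8 and 37.9 in XBP1-KO (adjusted p 0.0199).

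Among genes that work with fibronectin and factor XIII, edgeR called none. Of 10 listed genes of fibronectin receptors, cross-linking and related matrix proteins 9 were tested, of which 8 lay higher and 1 lower, with a median of 0.10. None passed in edgeR, DESeq2 or limma-voom, and 2 had an unadjusted p under 0.05. Spp1, the matrix protein osteopontin, had 77.0, 101 and 83.6 CPM in WT against 108, 136 and 114 in XBP1-KO (adjusted p 0.195). Of 10 genes of tissue coagulation and fibrinolysis, all tested, 5 lay higher and 5 lower with a median of -0.03. No gene was called by edgeR or limma-voom, 4 had an unadjusted p under 0.05, and DESeq2 called F7, F10 and Plau, all lower. F7, coagulation factor VII, had 15.4, 12.6 and 27.8 CPM in WT against 6.84, 9.11 and 7.56 in XBP1-KO (adjusted p 0.0798 in edgeR).

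Ly6c2 encodes the Ly6C protein of inflammatory monocytes. It had 22.5, 18.3 and 11.3 CPM in WT against 19.9, 29.0 and 33.6 in XBP1-KO. XBP1-KO b and c lay above every WT library and XBP1-KO a within them. The fold change on the log2 scale was 0.66 (SE 0.26), or 1.58 times the WT level with a 95% interval of 1.06 to 2.36, and the adjusted p was 0.310. Its near copy Ly6c1 had 0.459, 0.495 and 0.434 CPM in WT against 1.61, 1.86 and 1.27 in XBP1-KO (adjusted p 0.128). Of the 50-base stretches of the Ly6c2 transcript 32.6% also occurred in Ly6c1, so the split of reads between them is uncertain. Fabp4, a fatty acid carrier (root mean square difference 0.16), and Arhgap27 (0.17) had the most similar profiles. Ccr2, the chemokine receptor that brings monocytes into tissue, had 2694, 2282 and 3107 CPM in WT against 1698, 1862 and 1607 in XBP1-KO (adjusted p 0.0785). Ccr2 thus lay lower in every XBP1-KO library, while Ly6c2 lay higher in 2 of them than in any WT library. Over the 13 monocyte markers, all tested, 6 lay higher and 7 lower, with a median of -0.02, and none passed in edgeR or limma-voom. At an unadjusted p under 0.05 there were 4, and DESeq2 called 2, Ccr2 and Ly6c1.

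Paralogs of the 10 genes formed a list of their own. Of 10 listed, some of them also in the other lists, 9 were tested, with 7 higher, 2 lower and a median of 0.69. None passed in edgeR or limma-voom, 4 had an unadjusted p under 0.05, and DESeq2 called Ly6c1 and Ly6a, both higher. Ly6a, or Sca-1, had 33.2, 18.4 and 24.0 CPM in WT against 45.7, 40.8 and 56.5 in XBP1-KO (adjusted p 0.0854 in edgeR).

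Much of the variation of these genes ran between library b and the others of its genotype. On the second principal component of all genes tested, with 22.2% of the variance, WT b lay at 38.3 and XBP1-KO b at 30.1, apart from the rest, with the other 4 libraries between -45.0 and -0.993. Library b was the highest of its genotype in both groups for Arg1, Il4ra, Folr2 and F13a1, and the lowest in both for Retnla, Mgl2 and Fn1. That is 7 of the 10 genes, or 70%, where 36% of all genes tested were extreme in the same direction in both b libraries. The b libraries were singled out by their place on the second principal component, which came from the same values. Genes of wide spread, as several of these 10 are, weigh most in it, so the 70% is a description and not a test. Retnla lay 2.45 and 1.72 below the mean of libraries a and c on the log2 scale, in WT and XBP1-KO, and Arg1 lay 1.19 and 1.62 above it. For F13a1 the excess was 0.30 in WT and 1.39 in XBP1-KO, and Fn1 lay 0.96 below in WT and 0.11 below in XBP1-KO. Retnla and Arg1 thus lay on opposite sides of libraries a and c in both b libraries. Resident peritoneal macrophage markers summed to 757 CPM in WT b and 1341 CPM in XBP1-KO b, against 401 to 835 CPM in the other 4. Of the 9 neutrophil markers, the granule genes Ngp, Ltf and Camp stayed under 1 CPM in both b libraries, while Csf3r (44.5 and 51.9 CPM) and Cxcr2 (48.8 and 66.6 CPM) were highest of their genotype there. Their part in the values of the 10 genes was not tested, and no label names a batch.

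**Figure D4:**
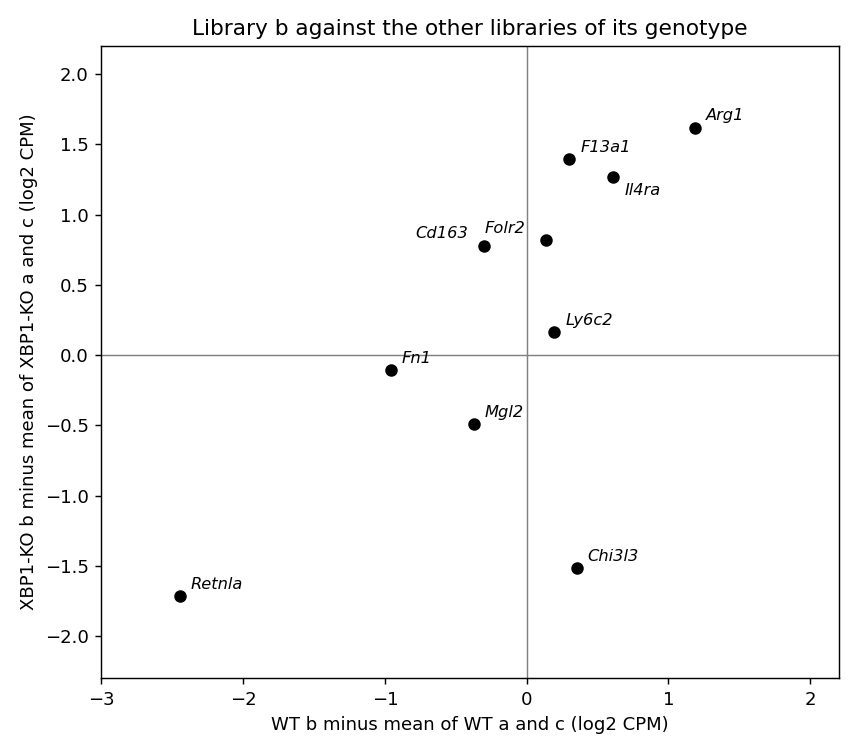
Difference in log2 CPM between library b and the mean of libraries a and c, in WT (x axis) and in XBP1-KO (y axis), 1 point a gene. Arg1 lies at 1.19 and 1.62, Retnla at -2.45 and -1.72, and Chi3l3 (0.35 and -1.51) and Cd163 (-0.30 and 0.78) have opposite signs in the genotypes.

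The libraries held between 26946349 and 32709100 counts. Xbp1, the targeted gene, had 67.2, 48.7 and 76.8 CPM in WT against 32.5, 30.9 and 40.4 in XBP1-KO (adjusted p 0.0545). Gene counts do not separate transcripts that lack the deleted part. In bulk RNA fewer cells of a type and less RNA per cell cannot be told apart. Dendritic cell markers were present, with Cd209a at 1632 ± 343 CPM, Itgax at 103 ± 7.95 CPM, Flt3 at 35.9 ± 12.6 CPM and Zbtb46 at 8.66 ± 0.225 CPM in WT (SD, n = 3), beside the macrophage genes Lyz2 at 15673 ± 5258 CPM and Csf1r at 596 ± 56.4 CPM. Itgax, the gene of CD11c, had 109, 94.3 and 106 CPM in WT against 143, 161 and 133 in XBP1-KO (adjusted p 0.106 in edgeR). Its values did not overlap between the genotypes, while 8 of the 10 dendritic cell markers lay lower in XBP1-KO.

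Markers of other cells moved with the genotype, and their part in the values of the 10 genes was not tested. All 11 T and NK cell markers lay higher in XBP1-KO, and 3 of them rose in edgeR, Cd3e, Nkg7 and Ncr1. limma-voom called 2, DESeq2 called 6, and 9 had an unadjusted p under 0.05. The sum of the 11 markers was 147 to 159 CPM in WT against 226 to 345 in XBP1-KO. The 2 of highest mean level overlapped between the genotypes. Klrb1c had 54.0 ± 8.16 CPM in WT against 59.6 ± 9.41 in XBP1-KO, and Cd2 40.7 ± 17.4 against 54.1 ± 11.5 (SD, n = 3). All 10 resident peritoneal macrophage markers lay higher and none passed in edgeR or limma-voom (4 at an unadjusted p under 0.05, and 4 with DESeq2), with sums of 401 to 757 and 785 to 1341 CPM. All 9 neutrophil markers lay higher and none passed in edgeR, DESeq2 or limma-voom (1 unadjusted), with sums of 127 to 333 and 356 to 585 CPM. All 5 B cell markers lay higher and none passed in edgeR or limma-voom (3 unadjusted, 1 with DESeq2), with sums of 130 to 312 and 336 to 487 CPM. Of 6 mast cell markers tested 5 lay higher and 3 rose in edgeR (Cma1, Tpsb2 and Cpa3), while limma-voom called 1, all 6 had an unadjusted p under 0.05, and the sum overlapped, at 113 to 177 and 136 to 188 CPM. DESeq2 called 4, these 3 and Kit, the receptor of stem cell factor, which lay lower at 70.4, 140 and 94.9 CPM in WT against 56.9, 65.1 and 68.6 in XBP1-KO (adjusted p 0.209 in edgeR). Kit made up most of the mast cell sum in each WT library. The overlap of the sums thus does not describe the other 5 markers, which all lay higher. The 4 eosinophil markers tested, with sums of 21.6 to 33.2 and 34.5 to 59.9 CPM, all lay higher and none passed in edgeR or limma-voom (2 unadjusted, 1 with DESeq2). The sums of 8 macrophage markers (12602 to 21850 and 15442 to 18542 CPM) and 10 dendritic cell markers (2341 to 2752 and 1842 to 2442 CPM) overlapped, and none passed in edgeR, DESeq2 or limma-voom (1 and 2 unadjusted). Lyz2 made up most of the macrophage sum in each library, and Cd209a most of the dendritic cell sum. Both overlaps thus say little about the remaining markers. Fold changes were positive for 4 macrophage markers and negative for 4. They were negative for 8 dendritic cell markers, among which Dpp4 and Zbtb46 did not overlap between the genotypes. The other 2 had positive fold changes, and of these Itgax did not overlap.

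Fibronectin and factor XIII can also come from stromal cells, tumour cells and platelets. The 8 fibroblast and mesothelial markers tested summed to 121 to 146 CPM in WT against 108 to 167 in XBP1-KO, and the 4 epithelial tumour cell markers to 33.6 to 47.1 and 32.7 to 58.7 CPM. Both ranges overlapped, and no marker of these lists passed in edgeR, DESeq2 or limma-voom or had an unadjusted p under 0.05. The highest of the fibroblast and mesothelial list were Krt19 and Dcn. Krt19 had 60.4 ± 11.1 CPM in WT against 54.2 ± 14.1 in XBP1-KO, and Dcn 39.1 ± 2.89 against 45.1 ± 12.2 (SD, n = 3). Col1a1, the defining collagen of fibroblasts, had 2 to 14 counts in each library and was not tested. The 5 platelet markers tested summed to 92.1 to 162 CPM in WT against 172 to 440 in XBP1-KO, nearly all of it from Pf4, which macrophages also make. Of the 5, 3 lay higher in XBP1-KO and 2 lower. No gene was called by edgeR or limma-voom, 1 had an unadjusted p under 0.05 and DESeq2 called it, Ppbp. Ppbp had 5.30, 3.04 and 1.54 CPM in WT against 5.82, 9.34 and 7.92 in XBP1-KO, without overlap. Itga2b, the platelet integrin chain, stayed between 1.10 and 2.50 CPM, and Gp9 had 0 to 9 counts in each library. By library the platelet markers summed to 162, 156 and 92.1 CPM in WT against 172, 440 and 219 in XBP1-KO, highest in XBP1-KO b, as F13a1 was. Their part in the values of F13a1 was not tested.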

How the data were processed

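Gene counts of 6 libraries, 3 WT and 3 XBP1-KO, were analysed. The deposited table holds whole-number counts per gene symbol, not normalized; the submitters' processing notes name RSEM, edgeR and mm9, without version or role, and no source used here gives the strand setting or annotation. The authors' second table holds CPM of 13946 genes, which equalled the counts over the library total (largest difference 5.8e-11) for genes with a CPM above 1 in at least 2 libraries. Column headers give the genotype and no replicate number. Whether the samples are separate animals is not labelled; p-values then measure only the spread between samples, which may be technical.

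The members, gene lists and tests were chosen with earlier results of these data known. Counts were filtered by filterByExpr (15958 genes), scaled by TMM and tested two-sided with edgeR 4.0.16 (glmQLFit, robust) in R 4.3.3, with Benjamini-Hochberg adjustment over all genes tested and a threshold of 0.05. SE is the log2 fold change over the square root of F. Alternatives used DESeq2 1.42.0, limma 3.58.1, other scalings and filters, the deposited CPM on log2(value + 1) and log2(value + 0.1), and fewer libraries. On simulated counts, 3 against 3 with 15543 genes tested, 56% of 100 genes changed 2-fold and 91% of 100 changed 4-fold were recovered, with 11 false calls. The changed genes were drawn from those with a mean above 1 CPM, and noise was independent between genes. The 10 genes had a wider spread (median SD 0.52 against 0.29 over all genes tested), so these rates do not describe them. Exact permutation of 3 against 3 samples cannot give a p below 0.1 and was not used. Libraries of the same genotype differed by more than sampling noise (chi-square per degree of freedom 22.5 to 74.5). At 26946349 to 32709100 counts, counting error matters only for genes of few counts.

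Named genes were Xbp1, the 10 members, of each pathway list the called genes or the gene of smallest p, of cell type lists the highest and called genes, and for members with a mean of at least 5 CPM and an SD of log2 CPM of at least 0.5, the 2 genes of at least 5 CPM with the smallest root mean square difference in centred log2 CPM (prior count 2). A gene that this rule names is not reported here. Others are named to describe a count, an excess or a paralog, and were chosen after their values were seen. Levels per kb use the longest protein-coding transcript of GENCODE M21 (GRCm38). Chi3l3 and Chi3l4 were matched to their RefSeq symbols Chil3 and Chil4. Promoters are from RefSeq GRCm38.p6, not the build of the counts.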

Additional observations from a re-analysis of the deposited data

How the results depend on the processing

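Each of the 10 genes kept its direction in all 16 alternatives, and of 160 comparisons 155 stayed on the same side of the threshold; the other 5 were the passes of Fn1 and F13a1 given above. The number of the 10 called was 0, but 1 with DESeq2, 2 without WT b and XBP1-KO b, and 0 to 1 with any single library left out. The number of all genes called, 71 (25 higher, 46 lower), was 465 with DESeq2, 252 without a filter on low counts, 31 and 29 on the deposited CPM with pseudocounts 1 and 0.1, 25 with library size alone (13 higher, 12 lower) and 5 (without WT c) to 154 (without XBP1-KO b) with 1 library left out. Upper quartile factors gave 23 higher and 27 lower. Of the pathway genes 2 were called, against 12 with DESeq2, 9 without a filter, 1 on either scale of the deposited CPM, with upper quartile factors or with library size alone, and 0 (without WT c) to 4 (without XBP1-KO b) with 1 left out. The log2 fold change of Xbp1, -0.89, passed the threshold with DESeq2 (-0.91), without a filter (-0.91), with a CPM filter (-0.88) and without WT b and XBP1-KO b (-0.999), and ran from -1.08 (without WT b, called) to -0.75 (without WT c) with 1 left out. The cause of these changes was not tested, beyond the fewer samples or other genes in each fit. With library size alone the median over all genes was 0.14, against 0.06. No paired analysis was possible because the columns carry no replicate number. Depth limited Il13, Chi3l4 and Ly6c1, which had few counts.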
